A study of Mus musculus with 8 samples.

Results

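The 9 mouse genes described here form the core of the hepatic insulin pathway: the receptors Insr and Igf1r, the docking proteins Irs1 and Irs2, the PI3K regulatory subunit Pik3r1, the kinases Akt1 and Akt2, and the transcription factors Foxo1 and Foxo3. They were chosen by name for these roles, by a rule that uses no measured value, though with earlier results of these data known, from the 55341 genes of GENCODE release M21, of which 12261 have a transcription start site (TSS) in a region carrying acetylated lysine 27 of histone H3 (H3K27ac). H3K27ac marks promoters and enhancers that are active, and chromatin carrying it was immunoprecipitated from mouse primary hepatocytes (MPH) of wild-type adult male C57Bl6 mice (C57BL/6J in the methods of the study). The cells were kept without serum and treated for 4 h with 1 µM thapsigargin, which blocks the calcium pump of the endoplasmic reticulum and so provokes endoplasmic reticulum stress (ERS), or with 0.04% DMSO as vehicle. Each treatment had 3 H3K27ac libraries and 1 input library, 8 libraries in all. The question addressed was which regulatory regions of the insulin pathway gain or lose H3K27ac under acute ERS. The model is a culture of isolated hepatocytes in which the drug, and not insulin, was varied.

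Insulin binds its receptor, which phosphorylates the docking proteins IRS1 and IRS2. These recruit PI3K, made of a regulatory and a catalytic subunit, whose lipid product brings AKT to the membrane, and AKT phosphorylates FOXO1 and FOXO3 and so keeps them out of the nucleus. In the fasted liver unphosphorylated FOXO enters the nucleus and turns on genes of glucose production as well as Irs2 and Insr themselves, which closes a feedback loop.

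The processed data are 3 region lists (mm10), made by the authors from a paired comparison of thapsigargin with DMSO: 5508 H3K27ac UP, 3376 H3K27ac DOWN and 23312 H3K27ac unchanged regions, 32196 in all. A region is UP or DOWN where it passed the authors' limit on the false discovery rate and a clear majority of its changed bins went one way. A listed UP or DOWN region can thus still hold some bins that went the other way. Regions that passed without a clear majority in either direction were in none of the lists, so that absence from them does not show absence of the mark. A region listed as unchanged is one in which no change was called. The lists hold positions alone, so that no region below has a signal, a fold change or an error between experiments, the depth of the libraries is unknown, and no test between the treatments could be made here. Since cells were studied in bulk, fewer cells of a type and less signal per cell cannot be told apart. Of 9 hepatocyte markers 8 had a TSS in a region (all but Cyp2e1), as did 3 of 16 markers of leukocytes, endothelium, stellate cells and cholangiocytes (Cd68, Stab2 and Sox9). Of the hepatocyte markers 3 lay in DOWN regions (Apoa1, Hnf4a and Serpina1a), 5 in unchanged and 0 in UP regions, and of the others Sox9, a cholangiocyte marker, lay in an UP region. The part of cell composition in the results was not tested. No member was in the LIVER-ID list of the study, and 4 (Igf1r, Irs2, Foxo1 and Foxo3) were in its UBQ list of genes with a broad promoter mark in liver and in other tissues.

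At the promoters, no change was called at any of the 9 genes. For 8 of them a TSS lay in a region, and all 9 regions concerned (Pik3r1 has a pair) were H3K27ac unchanged. Over the 12261 genes that have a start-site region, it was UP for 21.4% and DOWN for 8.91%, and among the 9805 protein-coding genes these shares were 21.7% and 8.31%. With 8 genes, a count of 0 against these shares is a description and was not tested. Away from the promoters the picture differed. Within the gene bodies or within 50 kb of a TSS of the 9 genes lay 74 regions, of which 9 were UP, 5 DOWN and 60 unchanged. The changed share was 18.9%, against 27.6% over all regions, and 64.3% of the changed ones were UP (95% exact binomial interval from 35.1% to 87.2%, which covers counting error only), close to the 62.0% of all changed regions.

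**Figure D1:**
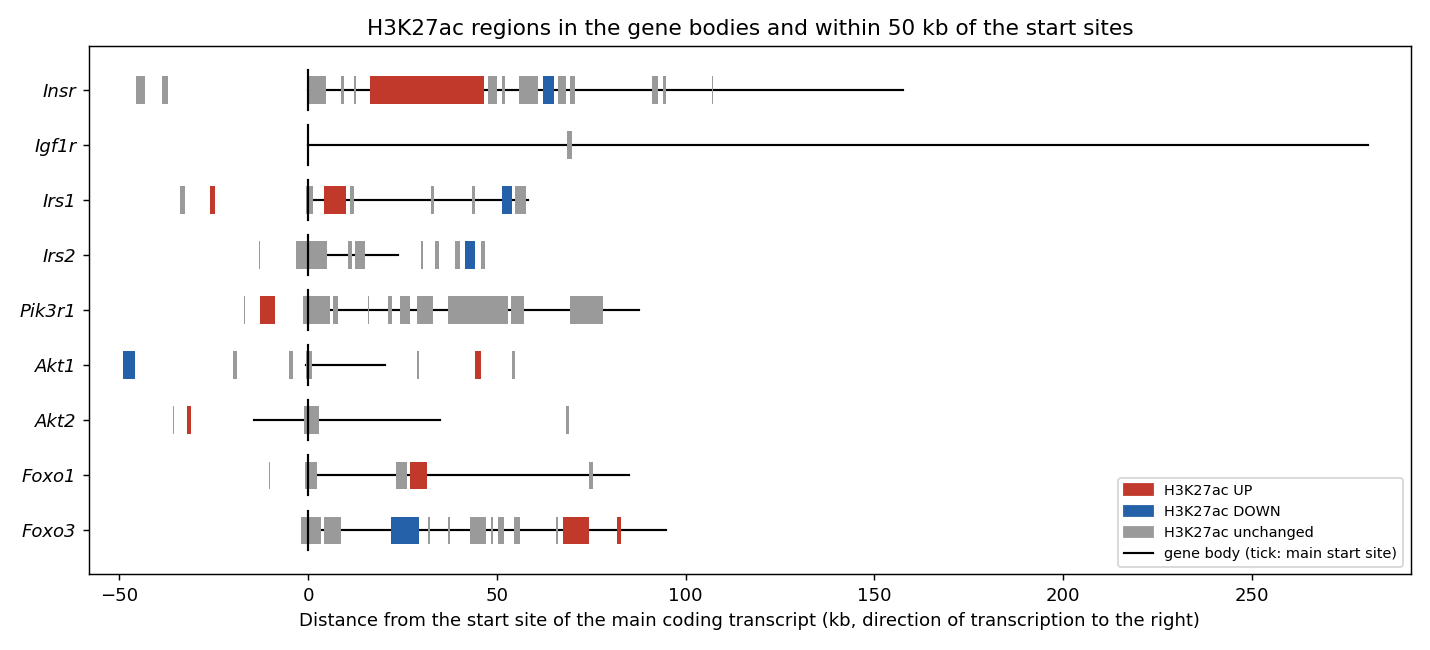
Positions of the H3K27ac regions of the 9 genes, with the distance from the start site of the main coding transcript in kb on the x axis, 1 gene per row and the direction of transcription to the right. The start-site regions are all gray (unchanged), the 9 UP and 5 DOWN regions lie away from them, and the widest block is the UP region in the first introns of Insr.

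Insr encodes the insulin receptor. The gene spans 157557 bp on the minus strand of chromosome 8 (mm10, chr8:3122061-3279617). Its main TSS lay in an unchanged region of 4843 bp that covers exon 1 and the start of intron 1, and this region was wider than the widest start-site region of 87.3% of genes. The gene body held 13 regions, which were 1 UP, 1 DOWN and 11 unchanged. The UP region (chr8:3232899-3263232) was 30334 bp wide, began 16385 bp downstream of the main TSS and ran through intron 1, exon 2 and part of intron 2. It was the fifth widest of the 5508 UP regions (rank 5), ranked 9 among all 32196 regions, and took up 19.3% of the gene body. Only 10 protein-coding genes held more base pairs of UP regions. The TSS of Gm16180, a short antisense gene, lies inside it, and no TSS of another coding gene does. Further along intron 2, 62304 bp from the main TSS, lay a DOWN region of 2919 bp (chr8:3214395-3217313), so that a gain and a loss were called in the same intron with 3 unchanged regions between them.

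The sequence of the wide Insr region was searched, as were those of all other regions, for the consensus letters of factors of the insulin and stress responses, on both strands. These were forkhead sites (TGTTTAC, read by FOXO and by the hepatocyte factor FOXA), the insulin response element (CAAAACAA), ATF4/CHOP composite sites (TGATGCAA, a hallmark of ERS), C/EBP (TTGCGCAA), AP-1 (TGANTCA), CRE (TGACGTCA), the unfolded protein response element UPRE (TGACGTGG), PAR-bZIP and NFIL3 sites (TTANGTAA) and NRF2 (TGACNNNGC, which overlaps AP-1 where a TGACTCA is followed by GC). In 30334 bp the Insr UP region held 16 AP-1, 13 insulin response element, 12 NRF2, 9 forkhead, 3 PAR-bZIP and 2 ATF4/CHOP matches, and none of C/EBP, CRE or UPRE. A match is a description of the letters, not a bound site. The only matches in its central 500 bp were 2 of the insulin response element. With 30 bases on each side and the match in capitals, the printed stretches are the ATF4/CHOP, AP-1 and forkhead matches that lie nearest to the centre of this region, on the plus strand of mm10 (chr8:3251920-3251987, chr8:3248834-3248900 and chr8:3247474-3247540). They lie at offsets of 3888, 802 and -558 bp from that centre, respectively.
Insr UP, ATF4/CHOP: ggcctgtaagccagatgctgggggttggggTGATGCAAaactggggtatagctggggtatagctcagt
Insr UP, AP-1: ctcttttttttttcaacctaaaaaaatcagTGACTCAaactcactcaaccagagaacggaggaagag
Insr UP, forkhead: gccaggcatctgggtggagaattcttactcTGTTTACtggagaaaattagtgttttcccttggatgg

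Igf1r encodes the receptor of insulin-like growth factor, which shares the downstream pathway and is known to be scarce in adult hepatocytes. It was the only member without a region at a TSS. None of its 6 TSSs lay in a region, no region lay within 50 kb of any of them, and its body of 280842 bp on chromosome 7 held a single unchanged region of 1292 bp in intron 2, 68522 bp downstream of the main TSS (chr7:68021349-68022640). The nearest changed region was UP, 9071 bp wide, and lay 299389 bp away. Its promoter is nonetheless rich in G and C. The 250 bases before its RefSeq start (GRCm38.p6, chr7:67952007-67952256, plus strand) held 77.6% GC and 42 CpG, against medians of 52.4% and 6 over 32851 RefSeq promoter windows, and no match to any of the 9 motifs. They are shown because this is the promoter that was in none of the lists. Igf1r is in the UBQ list of the study, though, and a region left out for want of a clear majority of bins in either direction would not be seen here.
Igf1r promoter: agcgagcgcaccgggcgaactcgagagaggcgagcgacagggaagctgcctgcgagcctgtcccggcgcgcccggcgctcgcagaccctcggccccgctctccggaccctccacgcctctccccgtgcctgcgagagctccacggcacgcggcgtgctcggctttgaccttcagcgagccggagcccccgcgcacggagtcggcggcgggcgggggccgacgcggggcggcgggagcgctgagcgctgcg

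Irs1 and Irs2 encode the docking proteins that pass the signal from the receptor to PI3K, and their loci differed. The single TSS of Irs1 lay in an unchanged region of 1894 bp, near the middle of the distribution (wider than 51.2% of genes), while that of Irs2 lay in an unchanged region of 8172 bp (wider than 95.8% of genes) that also holds a TSS of the neighbouring gene 9530052E02Rik. Irs1 (58316 bp, chr1:82233101-82291416, minus strand) had an UP region of 5831 bp that began 4345 bp downstream of the TSS and covered the end of exon 1, with coding and UTR bases, and the start of intron 1 (chr1:82281241-82287071). This was wider than 94.2% of UP regions. At the other end of the gene lay a DOWN region of 2546 bp over the end of intron 1 and the start of exon 2 (chr1:82237495-82240040), 51376 bp from the Irs1 TSS and 4383 bp from that of Gm9747. A further UP region of 1422 bp, 24631 bp upstream of Irs1, held the TSS of Rhbdd1, a rhomboid protease gene. Irs2 (23778 bp, chr8:10984681-11008458, minus strand) had no changed region in its body. Its only changed region within 50 kb was DOWN, 2474 bp wide and 41659 bp downstream of the TSS, beyond the end of the gene and inside the noncoding gene Gm44956 (chr8:10964326-10966799), and Irs2 was the only member with more DOWN than UP regions in that window. With a window of 100 kb it had 2 UP regions and 1 DOWN region, so that this order turns with the window.

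The promoters of this pair are shown side by side because both regions were unchanged and both windows held the same kinds of match. Each is the 250 bases before the RefSeq start on the minus strand of GRCm38.p6 (chr1:82291440-82291689 for Irs1 and chr8:11008930-11009179 for Irs2), with motif matches in capitals.
Irs1 promoter: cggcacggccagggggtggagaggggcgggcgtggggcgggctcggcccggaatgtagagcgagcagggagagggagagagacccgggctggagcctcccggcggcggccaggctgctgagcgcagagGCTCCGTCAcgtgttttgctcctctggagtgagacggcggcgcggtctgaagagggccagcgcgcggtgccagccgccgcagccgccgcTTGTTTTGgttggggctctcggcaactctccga
Irs2 promoter: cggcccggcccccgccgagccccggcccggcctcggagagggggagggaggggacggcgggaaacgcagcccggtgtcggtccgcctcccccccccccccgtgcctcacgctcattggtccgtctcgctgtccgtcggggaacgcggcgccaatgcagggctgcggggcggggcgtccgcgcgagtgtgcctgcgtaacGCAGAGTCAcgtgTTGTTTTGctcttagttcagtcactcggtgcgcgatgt
Both windows held 1 NRF2 match and 1 insulin response element match, read here on the opposite strand. Over all 32851 windows of this length 10.2% held the NRF2 letters and 2.21% the insulin response element. The longest runs of bases common to both windows were 10 bases long, each found once in each window. These were gtcacgtgtt, which overlaps the NRF2 match and contains the E-box CACGTG, and tgttttgctc, which overlaps the insulin response element match of Irs2. The shared runs were looked for after the sequences had been seen. In the UP region of Irs1 the search found 3 forkhead, 2 AP-1 and 5 NRF2 matches and none of ATF4/CHOP. The forkhead match nearest its centre (126 bp away, in intron 1, chr1:82284249-82284315, plus strand) is shown with the AP-1 match of the Irs2 DOWN region (chr8:10966533-10966599, plus strand), which held 2 forkhead matches and 1 AP-1 match.
Irs1 UP, forkhead: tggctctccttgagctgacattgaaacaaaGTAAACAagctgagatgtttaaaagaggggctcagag
Irs2 DOWN, AP-1: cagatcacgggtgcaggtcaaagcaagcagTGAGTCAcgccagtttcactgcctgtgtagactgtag

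Pik3r1 encodes the regulatory subunits of PI3K, a full-length form and shorter forms that start inside the gene. The locus (87655 bp, chr13:101680563-101768217, minus strand) was the one most covered by H3K27ac. Its 10 regions took up 49.2% of the gene body, against 0.46% to 36.6% for the other 8 genes, and all 10 were unchanged. A region of 7058 bp held the TSS of the full-length form, and one of 8859 bp held those of the shorter forms, which was wider than the widest start-site region of 96.7% of genes. In intron 2 lay an unchanged region of 15885 bp, which ranked 17 among the 23312 unchanged regions by width. The only changed region was UP, 4000 bp wide, and lay upstream of the gene, 8737 bp from the TSS of the full-length form (chr13:101776954-101780953). No other coding TSS lay nearer to it. It held 6 AP-1 matches, 2 NRF2 matches and 1 ATF4/CHOP match, and none of forkhead or the insulin response element. The ATF4/CHOP match (chr13:101779258-101779325, plus strand) and the AP-1 match nearest to the centre of the region (chr13:101779070-101779136) lie 338 bp and 150 bp from that centre, respectively.
Pik3r1 UP, ATF4/CHOP: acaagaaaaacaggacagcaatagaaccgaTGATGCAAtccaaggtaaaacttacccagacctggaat
Pik3r1 UP, AP-1: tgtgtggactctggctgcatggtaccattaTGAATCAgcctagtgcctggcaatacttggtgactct

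Akt1 and Akt2 encode the kinases that phosphorylate FOXO, of which AKT2 is the form best known for insulin action in the liver. Neither had a changed region in its body. Akt1 (21064 bp, chromosome 12, minus strand) held 1 region, an unchanged one of 1671 bp over the TSSs of 3 of its 9 transcripts, and this was the narrowest start-site region among the 8 genes (wider than 44.2% of genes). Akt2 (49275 bp, chromosome 7, plus strand) likewise held 1, an unchanged region of 3847 bp over 6 of 14 TSSs (wider than 81.8% of genes). It contained the start of the main coding transcript, at 27605858, and none of the TSSs that lie further upstream. Both genes had changed regions within 50 kb, but these lay nearer to other genes. For Akt1, an UP region of 1545 bp 27025 bp from its nearest TSS lay in the body of Adssl1, and a DOWN region of 3150 bp 45344 bp upstream held a TSS of Cep170b. For Akt2, an UP region of 1255 bp 16570 bp upstream held a TSS of 2310022A10Rik. Whether these regions act on the AKT genes was not tested.

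Foxo1 and Foxo3 encode the transcription factors that insulin keeps out of the nucleus. The TSS of Foxo1 (84886 bp, chr3:52268336-52353221, plus strand) lay in an unchanged region of 3350 bp, wider than 76.9% of genes, which also holds a TSS of the gene Gm20402. In intron 1, 27027 bp downstream, lay an UP region of 4514 bp (chr3:52295363-52299876), next to an unchanged region of 2832 bp. It held 2 forkhead, 4 insulin response element and 4 AP-1 matches and none of ATF4/CHOP. Near its centre a forkhead match and an AP-1 match stand 5 bases apart, and this stretch is shown with both in capitals (chr3:52297730-52297796, plus strand).
Foxo1 UP, forkhead and AP-1: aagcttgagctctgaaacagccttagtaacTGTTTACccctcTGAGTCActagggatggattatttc

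Foxo3 (94915 bp, chr10:42181841-42276755, minus strand) had the most changed regions of the 9 genes in its body, with 2 UP and 1 DOWN beside 9 unchanged. The TSSs of 4 of its 5 transcripts lay in an unchanged region of 5198 bp, wider than 88.7% of genes. The DOWN region in intron 2 (chr10:42247476-42254773) was 7298 bp wide, wider than 91.7% of DOWN regions, and began 21969 bp downstream of the main TSS but 3593 bp downstream of a second coding TSS inside the gene. The wider UP region (chr10:42202196-42209081), of 6886 bp, was also in intron 2, 67661 bp from the main TSS, and was wider than 95.6% of UP regions. The other UP region, of 1044 bp, lay in intron 3 (chr10:42193931-42194974). Gain and loss were thus called in the same intron, as at Insr, with 7 unchanged regions between them. The DOWN region held 5 forkhead matches, 7 insulin response element matches and 1 AP-1 match. The 3 insulin response element matches in its central 500 bp overlap each other in 1 repeated stretch. The wider UP region held 1 forkhead match, 5 AP-1 matches and the only UPRE match among the 14 changed regions of the 9 genes. Shown are the forkhead match nearest to the centre of the DOWN region (chr10:42251434-42251500) and the UPRE match of the UP region (chr10:42204714-42204781), both on the plus strand.
Foxo3 DOWN, forkhead: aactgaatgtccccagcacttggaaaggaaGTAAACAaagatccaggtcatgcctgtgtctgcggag
Foxo3 UP, UPRE: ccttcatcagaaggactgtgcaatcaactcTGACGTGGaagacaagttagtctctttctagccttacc

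**Figure D2:**
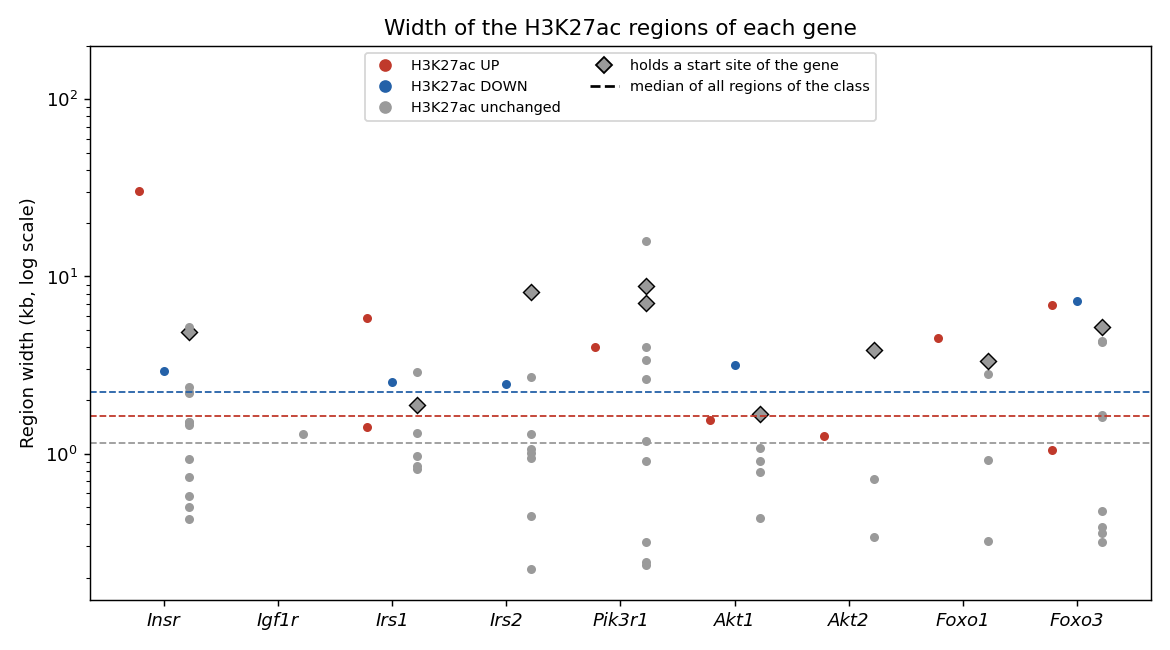
Width in kb (log scale) of each H3K27ac region of the 9 genes, coloured by class, with diamonds for regions that hold a start site of the gene and dashed lines for the median of all regions of each class. The Insr UP region stands above all others at 30334 bp, and all 9 diamonds lie above the median of 1155 bp of unchanged regions.

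In width, the changed regions ranged from 1044 to 30334 bp. Over all regions, the UP median was 1621.5 bp, the DOWN median 2229 bp and the unchanged median 1155 bp. All 5 DOWN regions were wider than the DOWN median, the narrowest being that of Irs2 at 2474 bp. Of the 9 UP regions, 5 were wider than the UP median (those in Insr, Irs1 and Foxo1, the wider of the pair in Foxo3 and that upstream of Pik3r1), and the other 4 were narrower. For 9 of the 14 changed regions, 6 UP and 3 DOWN, the nearest coding TSS was that of the member itself, and for the other 5 (3 UP, 2 DOWN) it was that of another gene. A region was assigned here by distance, which does not show which gene it controls.

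By gene, 4 of the 9 had an UP region in the body (Insr, Irs1, Foxo1 and Foxo3), 3 had a DOWN region there (Insr, Irs1 and Foxo3), and 5 had unchanged regions only. Over all genes with a region in the body, 28.1% had an UP and 14.9% a DOWN region, and over protein-coding genes 29.8% and 15.3%. Long genes can hold more regions, and 5 of the members with a start-site region exceed 50 kb. This class of length was picked after the values were seen. Of protein-coding genes whose start-site regions were all unchanged, 12% had an UP and 7.57% a DOWN region in the body, and of those of 50 kb or more 30.6% had an UP and 18.9% a DOWN region, against 4 and 3 of these 5 members. Within 50 kb of a TSS, 7 of 8 members had an UP region and 4 had a DOWN region, with both at Insr, Akt1 and Foxo3. The Insr DOWN region and the wider Foxo3 UP region are within 50 kb only of a TSS inside the gene. The shares over all genes with a region in that window were 42.6% for UP and 26.2% for DOWN, and over protein-coding genes 46.9% and 27.7%. The members had 4 to 15 regions in that window, apart from Igf1r with 0, and the median protein-coding gene with any had 4. The part of this number in the shares was not tested. Counted by region, 15.4% of the 52 regions in the members' bodies and 17.4% of the 69 within 50 kb were changed. Over all regions 27.6% were.

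**Figure D3:**
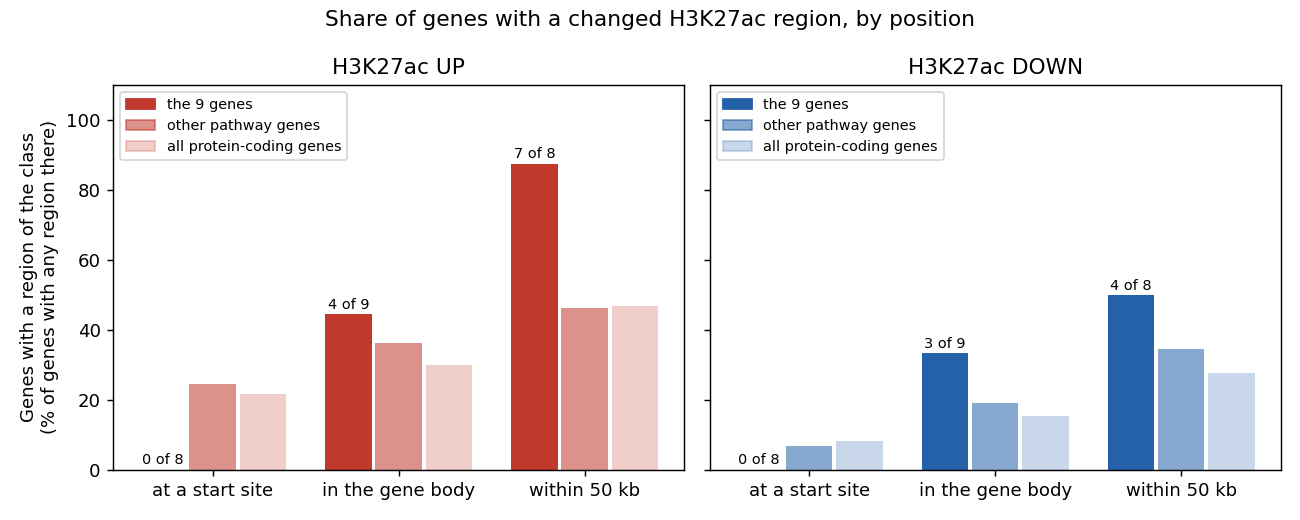
Share of genes with an UP (left) or DOWN (right) region at a start site, in the gene body or within 50 kb, as a percentage of genes with any region there, for the 9 genes (dark), the other pathway genes (middle) and all protein-coding genes (light). The 9 genes have 0 of 8 at a start site in either panel, and 7 of 8 (UP) and 4 of 8 (DOWN) within 50 kb.

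Over all regions of at least 500 bp, the central 500 bp held the ATF4/CHOP letters in 5.75% (UP), 1.11% (DOWN) and 1.77% (unchanged) of regions. In the same order AP-1 was found in 34.8%, 19.6% and 25.6%, forkhead in 7.93%, 10.5% and 8.61%, and the insulin response element in 6.93%, 9.08% and 7.61%. In the same central stretch, ATF4/CHOP matches were found in 1 of the 9 UP regions near the members (the one at the Rhbdd1 TSS) and in 0 of the 5 DOWN regions. Over their whole width, the 9 UP regions held 5 such matches in 3 regions (Insr, Pik3r1 and the one at the Rhbdd1 TSS), or 0.088 per kb against 0.06 over all UP regions, and the 5 DOWN regions held 0, against 0.0244 per kb over all DOWN regions. Matches per kb of AP-1 were 0.616 in the members' UP regions and 0.272 in their DOWN regions, against 0.586 and 0.373 over all UP and DOWN regions. Those of forkhead were 0.282 and 0.435, against 0.169 and 0.176. In the members' unchanged regions the forkhead value was 0.153, against 0.171 over all unchanged regions. Those of the insulin response element were 0.317 (UP) and 0.381 (DOWN), against 0.238 and 0.268, with overlapping matches each counted. Of the 16 forkhead matches in the UP regions 9 lay in the Insr region, and of the 8 in the DOWN regions 5 lay in that of Foxo3. Of the insulin response element matches, 13 of 18 lay in the same Insr region and all 7 in the same Foxo3 region. These regions, of 30334 and 7298 bp, are also the widest UP and DOWN regions of the members. The counts of matches therefore do not show how far the densities rest on them.

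Of 56 other genes of the pathway 45 had a TSS in a region, and this region was UP at 11 (24.4%), DOWN at 3 (6.67%) and unchanged at the other 31. These shares are near the 21.7% and 8.31% of protein-coding genes, and were not tested. By role, none of the 8 docking protein genes and none of the 6 genes of AKT and its activating kinases with a start-site region (members included) had a changed one, and neither did Foxo1 and Foxo3, the only FOXO genes with a start-site region. Foxo4 and Foxo6 had none.

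The inhibitors and phosphatases (3 UP) and the effectors (4 UP) are separate roles in the list, and are those with the most UP genes. Together they made up 19 of the 45 genes with a start-site region, 7 of the 11 with an UP one and 1 of the 3 with a DOWN one. They were joined here as the roles with the most UP genes, so that a high UP share of the pair follows from the choice. Over all 45 genes, 24.4% had an UP and 6.67% a DOWN one. Over protein-coding genes with such a region, 21.7% had an UP and 8.31% a DOWN one, and the difference was not tested. Among 9 genes of inhibitors and phosphatases with a start-site region, 3 had an UP one: Deptor, an mTOR inhibitor, with 17914 bp; Trib3, a pseudokinase that binds AKT and is a known target of ATF4 and CHOP, with 1846 bp; and Ptpn1, a phosphatase of the insulin receptor, with 1295 bp. Among the 10 effectors 4 had an UP region, at Gsk3b, a kinase that AKT inhibits (11260 bp), Eif4ebp1, a repressor of translation (7796 bp), Rheb, an activator of mTOR (3819 bp), and Rps6kb1, a kinase downstream of mTOR (1457 bp). Of the PI3K subunits, Pik3cb, a catalytic one, had an UP region of 5207 bp, and Pik3r3, a regulatory one, had a DOWN region of 1161 bp. Among the receptors, Igf2r, which clears IGF2, had an UP region of 1396 bp. The UP regions given for Igf2r (chr17:12750580-12751975) and Deptor (chr15:55130357-55148270) lie at TSSs inside the gene and reach neither end of it. Each of these genes has 2 start-site regions, and a gene was counted as UP where any such region was UP. Among the hepatic target genes, Sesn2, a stress-induced inhibitor of mTOR signalling, had an UP region of 1804 bp. Txnip, which restrains glucose uptake, had a DOWN region of 4143 bp. The gluconeogenic FOXO1 targets G6pc and Pck1 had unchanged regions of 3288 and 1984 bp at their TSSs.

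**Figure D4:**
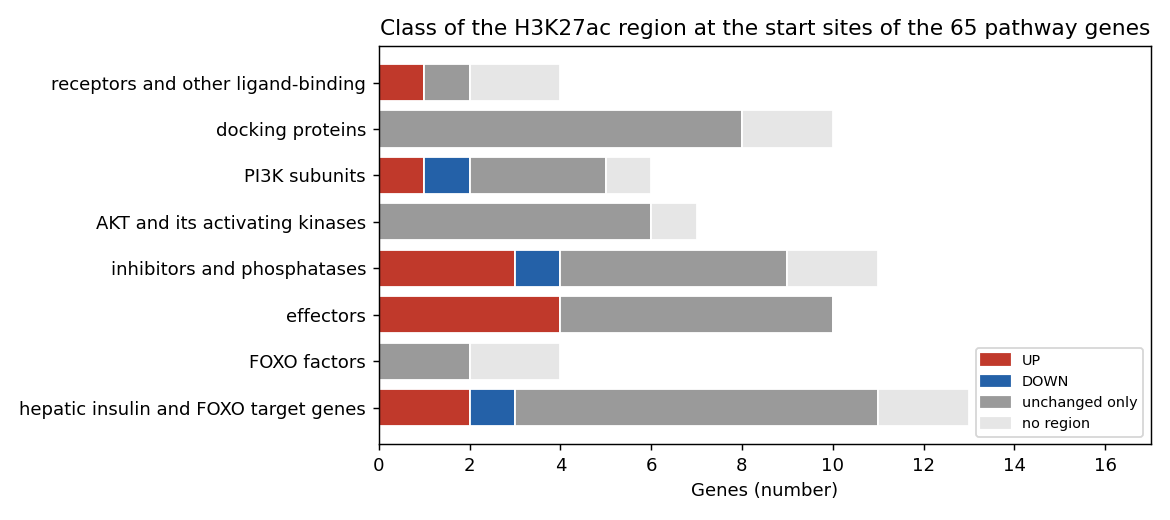
Number of genes of each role in the insulin pathway (65 genes, the 9 members included) by the class of the H3K27ac region at their start sites. Red marks UP, blue DOWN, gray unchanged only and light gray no region, and the docking proteins, the AKT group and the FOXO factors hold no red or blue.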

How the data were processed

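Measured were 6 H3K27ac and 2 input libraries of MPH, grouped by treatment as the labels give it. Per the labels and the methods of the study, the authors aligned reads with Bowtie, called broad peaks with MACS2 on pooled libraries, and tested binned counts by csaw with experiments as pairs. The deposited files are 3 lists of regions with start and end positions on mm10, without counts or signal. The pairing of libraries could not be checked or repeated from them.

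Regions were compared with GENCODE M21 on GRCm38, whose chromosomes contain every region, in Python 3.11.15. A region was assigned to a gene where it overlapped the TSS of any transcript, any base of the gene body, or the 50 kb on either side of a TSS. Genes named are the 9 members, pathway genes with a changed region at a TSS, genes sharing a start-site region, and the genes nearest to changed regions. Others are named where a count or a role called for it, after their values were seen. The members and lists were chosen with earlier results of these data known, and the motifs shown and the class of genes of 50 kb or more were picked after the values were seen. Promoter sequences are from RefSeq on GRCm38.p6, whose table matched 8 of the 9 symbols (not Insr). Intervals are exact binomial (scipy 1.17.1). No test was run. Alternatives were other transcripts, RefSeq genes, a minimum width, other windows, region centres and base pairs. The counting functions were tested on simulated data. Some items of the pathway list are not reported here by name. The study's own assignment of regions with CisMapper was not repeated.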

Additional observations from a re-analysis of the deposited data

How the results depend on the processing

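Of 61 values recomputed under the alternatives, 52 stayed close to those reported (within 1.5 times for a count) and 9 moved. Among the 52 is the UP share of the changed regions when base pairs were counted. It was 79.2% in the gene bodies (62.5% by number of regions) and 77.9% within 50 kb (66.7% by number). That 0 members had an UP and 0 a DOWN region at a TSS, and 8 an unchanged one, held for transcripts tagged basic, RefSeq genes, TSSs within 1 kb of a region and regions of at least 1 kb. The regions near the TSSs depended on the window: with 25 kb there were 5 UP and 2 DOWN regions in place of 8 and 4, and with 100 kb 16 UP regions, 8 members with more UP than DOWN in place of 4, and 0 with more DOWN in place of 1. With basic transcripts, and also with RefSeq genes, the window of 50 kb held 7 UP and 3 DOWN regions. The number with more DOWN was 2 with basic transcripts, with RefSeq genes and with region centres, and 3 when base pairs were counted. These numbers are small, and a step of 1 gene moves them. No paired analysis was possible because the lists give no value for any single library, which also meant that leaving a library out could not be tried.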
